A study of Mus musculus with 4 samples.

Results

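Axon guidance ligands and receptors were described from ribosome footprints of mouse dorsal root ganglia, which hold the cell bodies of the sensory neurons and lie along the spinal cord. The genes were chosen by name alone: semaphorins, plexins, neuropilins, Eph receptors, ephrins, Robo receptors, Slit ligands, netrins, Unc5 receptors and Dcc. The rule found 71 of the 48431 genes in the deposited table, of which 68 were protein-coding and 3 were RNAs transcribed opposite to Plxna4. Per the labels, the ganglia came from wild-type male mice of strain SW that received methylglyoxal, a reactive side product of sugar breakdown, at a dose of 2 mg/kg for 6 days by intraperitoneal injection. The treatment text of the same samples names saline, which goes against that label, so the libraries are named by the methylglyoxal label alone. All 4 libraries, replicates 1 to 4, belong to this 1 group, and no control libraries were analysed here. Comparisons are therefore between genes within a library, and between the libraries.

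Growing axons are steered by secreted and membrane-bound cues that attract or repel the growth cone. Semaphorins act through plexins, and most secreted class 3 semaphorins also need a neuropilin. Slit proteins bind Robo receptors, netrins bind Dcc and the Unc5 receptors, and ephrins on one cell bind Eph receptor tyrosine kinases on another. In sensory ganglia these systems shape the paths and branches of sensory axons during development, and many of the genes are also used by glia, fibroblasts and vessels. In a whole ganglion, fewer cells of a type and less RNA per cell cannot be told apart.

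A ribosome footprint is the piece of mRNA that a ribosome protects, selected here at 28 to 34 nt, and a gene with more ribosomes on its mRNA yields more footprints. Because translation begins at the initiation codon, the start regions of leading and low genes are shown first, with 12 bases before the ATG and the ATG in capitals, from GENCODE M21 transcripts of build GRCm38, each 5′ to 3′ on the strand of its gene.
Sema3b: tgagctgccggcATGgggcgggctgagg
Slit1: ggcgaaggcaccATGgcgctaacgcccc
Sema7a: cggggctgcgggATGacgcctcctcctc
Nrp1: tggcgaaggaggATGgagagggggctgc
Nrp2: tctctgtcaaaaATGgatatgtttcctc
Plxna4: cctgtgtctgagATGaaagccatgccct
Plxnc1: ccccctagccccATGgaggtctcccgga
Sema3a: agcgtctgcagcATGggctggttcactg
A purine at the third base before the ATG and a G right after it are the features most often linked to efficient initiation. Of the 8 genes shown, Plxnc1 lacks the purine, and Sema7a and Plxna4 lack the G. Over the 64 coding members with a full start region, 90.6% had the purine, against 84.5% of 19444 coding genes. The G was present in 62.5% of these members, against 49.5% of the coding genes. Sema3a, among the genes with the lowest levels, has both features, as do Sema3b and Slit1, which had the highest. Only footprints were used here, so a level mixes the amount of mRNA with the ribosomes on each mRNA. A link between the start features and the levels was not tested.

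The libraries held between 2610536 and 3753018 reads, so that 1 read was worth between 0.266 and 0.383 CPM (reads per 1000000 reads), and a count of 0 allows up to 3 reads, between 0.799 and 1.15 CPM. Reads of replicates 1 and 2 differed by little more than counting noise (chi-square per degree of freedom 1.03 over all genes compared), as did those of replicates 3 and 4 (1.05), whereas libraries of different pairs differed by 3.29 to 4.07. These pairs were found from the counts of all genes and not from the labels, and each was counted as 1 sample, so every mean ± SD below is over 2 pair means (n = 2). Nothing in the labels says whether the replicates are separate animals, so the spread may be technical. Markers of sensory neurons were detected in 12 of 12 cases, with summed levels between 14581 and 14653 CPM, and markers of spinal cord oligodendrocytes and motor neurons summed to between 3.73 and 5.75 CPM, with 2 of 5 detected. Skeletal muscle markers were also present, at 3121 and 3181 CPM in replicates 1 and 2, against 1939 and 1922 CPM in replicates 3 and 4. The 6 Schwann cell markers used summed to 10912 and 10982 CPM in replicates 1 and 2, and to 12276 and 12342 CPM in replicates 3 and 4, a difference carried by Pmp22 (6650 and 6738 CPM, against 8246 and 8302 CPM).

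A gene was called detected at a mean of at least 1 CPM, which 66 of the 71 genes reached: 65 of the 68 coding genes and 1 antisense RNA. Together the genes took 0.419% and 0.422% of the reads of replicates 1 and 2, and 0.483% of the reads of replicates 3 and 4 alike. The 3 coding genes below the minimum were Efna3 with 11 reads in all libraries together, Robo3 with 5 and Epha1 with 0. For Epha1, 0 of all reads allows a pooled level of up to 0.240 CPM. Footprint counts rise with gene length, so genes were compared only as CPM per kb of coding length, as if every footprint came from the coding sequence. On that scale the median of the 65 detected coding members was 10.9 CPM per kb, beside 11.2 CPM per kb over all 13825 detected coding genes, and 32 of the 65 (49.2%) lay above the latter. The members are long genes, with a median coding length of 2889 bases against 1425 bases over all detected coding genes. Their undivided levels had a median of 30.3 CPM, against 15.8 CPM.

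**Figure D1:**
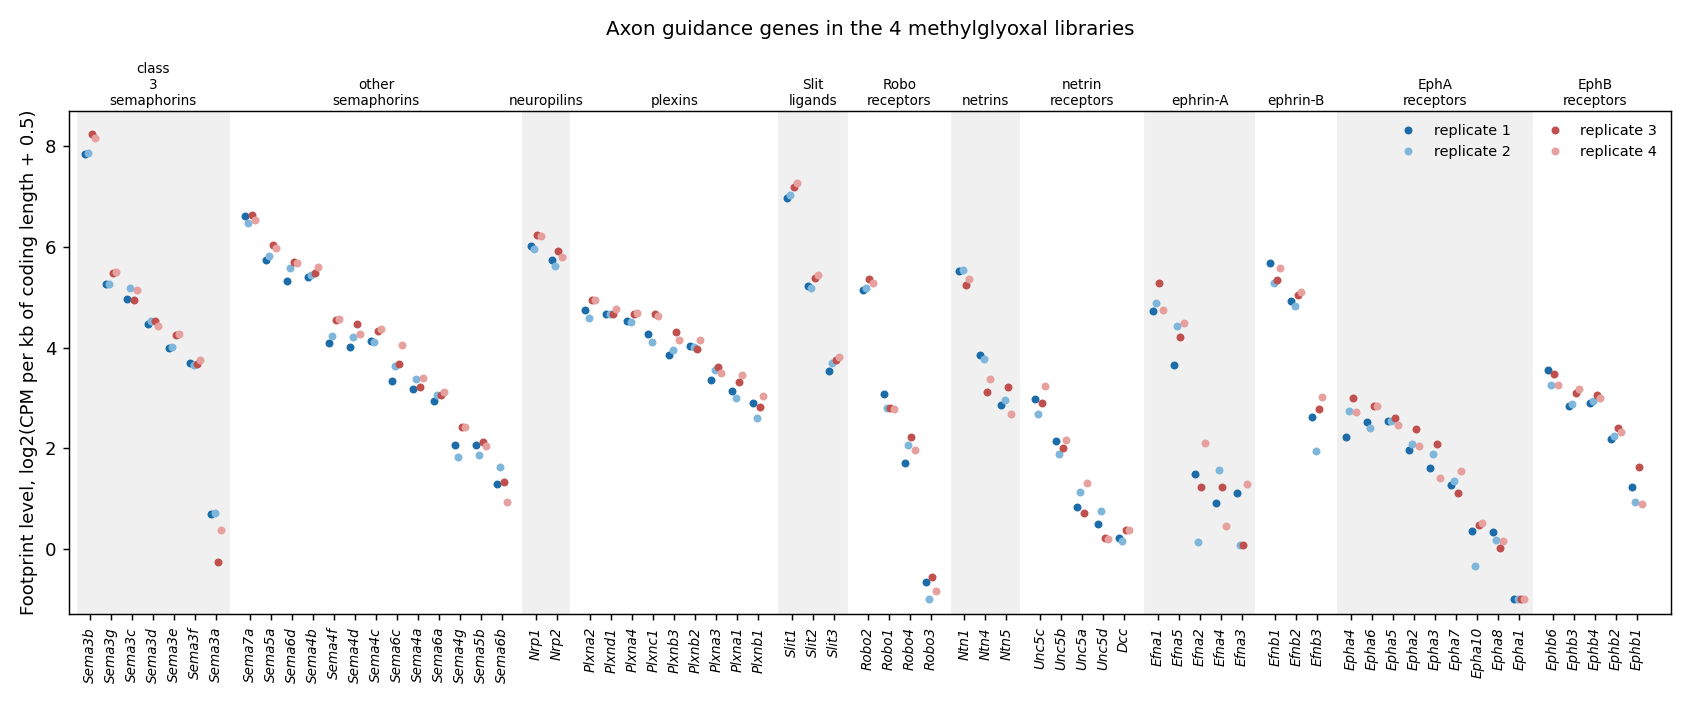
Footprint level of each of the 68 coding genes as log2(CPM per kb of coding length + 0.5), by family and in descending order within it. Each point is 1 library, with replicates 1 and 2 in blue and 3 and 4 in red. Sema3b, Slit1 and Sema7a stand at the top, and Epha1 is at 0 in all 4 libraries.

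The order of the levels per kb of coding length was led by a secreted semaphorin and a Slit. Sema3b (chr9:107597674-107609229, minus strand) stood at 263 ± 44.8 CPM per kb, above 97.8% of detected coding genes, and Slit1 (chr19:41600257-41743665, minus strand) followed at 139 ± 15.6 CPM per kb. Sema7a (chr9:57940112-57962865, plus strand) came next at 94.2 ± 1.88 CPM per kb, ahead of Nrp1 (chr8:128358604-128503363, plus strand) at 68.6 ± 8.34 CPM per kb. Down to Nrp1 these genes were separated, since the 4 libraries of each lay above all libraries of the next named. Below them most neighbours in the order overlapped: of the 64 neighbouring pairs among detected coding members, 5 did not overlap. The order ended with Dcc at 0.716 ± 0.113 and Epha8 at 0.630 ± 0.0933 CPM per kb, both measured on few reads (39 and 24). With no division by length, Slit1 (637 CPM) stood above Sema3b (590 CPM).

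All 20 semaphorins were detected, and together they summed to 1772 CPM. Sema3b, a secreted class 3 semaphorin, had 515, 522, 681 and 642 CPM in replicates 1 to 4, and supplied 66.8% of the reads of its class. It was followed within the class by Sema3g at 41.3 ± 4.52 and Sema3c at 32.9 ± 0.478 CPM per kb. Sema3a, the classical repellent of sensory axons, was the lowest of the 7 members of its class. It had 2.58, 2.66, 0.766 and 1.87 CPM in replicates 1 to 4, which is 25 reads in all. Of the footprint-length windows of 28 bases in its coding sequence, 9.65% also occur in the annotated transcript Gm43431, so its small count could be split between those genes by the authors' counting.

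Among the 13 other semaphorins, Sema7a, which is tethered to the membrane by a lipid anchor, was highest, with 193, 177, 196 and 185 CPM in replicates 1 to 4. The values of replicates 1 and 2 overlapped those of 3 and 4. Sema5a and Sema6d, both transmembrane proteins, followed at 59.0 ± 6.71 and 47.3 ± 5.25 CPM per kb. The lowest of these 13 was Sema6b, a transmembrane semaphorin, at 1.98 ± 0.386 CPM per kb, so that the group spanned a range of 47.5-fold. The median of class 3 semaphorins exceeded that of the others by 0.31 ± 0.18 on the log2(CPM per kb + 0.5) scale, in 4 of 4 libraries. With the length of all exons in place of coding length this difference turned to -0.11.

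The neuropilins, coreceptors that bind class 3 semaphorins and also VEGF, were the highest receptors per kb of coding length. With no division by length, Robo2 (170 CPM) and Plxna2 (157 CPM) lay above Nrp2 (151 CPM). Nrp1 had 177, 170, 208 and 205 CPM in replicates 1 to 4. Nrp2 (chr1:62703285-62818695, plus strand) had 147, 136, 167 and 155 CPM, or 54.2 ± 4.88 CPM per kb. Nrp1 exceeded Nrp2 by 0.34 ± 0.046 on the log2(CPM per kb + 0.5) scale, in 4 of 4 libraries. Both coreceptors stood far above the semaphorin each is best known to bind. Nrp1 exceeded Sema3a by 5.72 ± 0.63 on that scale, and Nrp2 exceeded Sema3f by 2.08 ± 0.10. With the length of all exons those 2 differences were 4.96 and 1.11.

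All 9 plexins, the signalling receptors of semaphorins, were detected. They spanned 4.12-fold between the lowest and highest per kb, against 15.8-fold over the detected Eph receptors and 309-fold over the semaphorins. These spans cover 9, 13 and 20 genes, and a span can widen with the number of genes. The lower end of the semaphorins was Sema3a, measured on 25 reads. Plxna2, a partner of class 6 semaphorins, led with 150, 133, 172 and 172 CPM in replicates 1 to 4, or 27.6 ± 3.77 CPM per kb. Plxnd1, the receptor of Sema3e, followed at 25.3 ± 0.643 CPM per kb. Plxna4 (chr6:32144268-32588192, minus strand), which pairs with neuropilins in sensory axons, was next. It had 128, 126, 142 and 144 CPM in replicates 1 to 4, or 23.8 ± 1.93 CPM per kb. These 3 overlapped their neighbours in the order, and Plxna4 was below Plxna2 by 0.20 ± 0.082 (log2) in 4 of 4 libraries. With the length of all exons the difference Plxna4 minus Plxna2 turned to 0.0726.

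Plxnc1 (chr10:94790866-94944835, minus strand), the receptor of Sema7a, had 88.6, 79.0, 118 and 114 CPM in replicates 1 to 4, or 21.1 ± 4.76 CPM per kb. Replicates 1 and 2 were both lower than replicates 3 and 4. Plxnc1 minus Plxna4 was -0.19 ± 0.21 (log2), which is within the spread between pairs, and it turned to 0.29 with the length of all exons. Plxnc1 lay below its ligand Sema7a by 2.15 ± 0.29 in 4 of 4 libraries, which was 0.92 with no division by length. Plxnd1 stood 0.57 ± 0.15 above Sema3e, and 2.12 above it with the length of all exons or 1.87 with no division by length. Plxnb1, a receptor of Sema4d, was the lowest plexin, at 1.20 ± 0.093 (log2) below Plxnb2. Plexins as a family differed from semaphorins by -0.10 ± 0.025 between medians, a difference whose direction rested on length: it was 0.55 with the length of all exons and 1.06 with no division by length. A plexins minus B plexins came to 0.075 ± 0.021, positive in 3 of 4 libraries and -0.43 with the length of all exons.

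Of the 3 antisense RNAs at Plxna4, Plxna4os3 had 13 reads over all libraries, Plxna4os1 had 1 and Plxna4os2 had 0. They lie within the span of Plxna4 on chromosome 6. The strand setting of the counting is not given in the sources used here, and overlap with the exons of Plxna4 was not examined. Whether any of these few reads came from Plxna4 is therefore not known.

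The Slit family was carried by Slit1. This secreted ligand of Robo receptors had 571, 601, 671 and 704 CPM in replicates 1 to 4, which is 72.8% of the reads of the 3 Slit genes. Slit2, known to promote branching of sensory axons, had 171, 166, 190 and 198 CPM, or 39.2 ± 3.85 CPM per kb. Slit3 was lowest, at 12.5 ± 1.04 CPM per kb.

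Robo2 was the main Robo receptor, with 159, 161, 184 and 174 CPM in replicates 1 to 4 and 79.1% of the reads of the 4 Robo genes. Robo1 had 38.4, 31.5, 31.4 and 30.9 CPM, with replicate 1 above the others. On the log2(CPM per kb + 0.5) scale, Robo2 exceeded Robo1 by 2.38 ± 0.22 in 4 of 4 libraries. The coding length used for Robo1 is not a multiple of 3, so its annotated coding sequence may be incomplete. Robo4, a receptor of endothelial cells, stood at 3.49 ± 0.403 CPM per kb. Robo3, which acts in axons that cross the midline, lies 554 bases from Robo4 on chromosome 9 and had 0.574, 0, 0.766 and 0.266 CPM in replicates 1 to 4. The Robo median lay below the Slit median by 2.44 ± 0.25 in 4 of 4 libraries, or by 1.83 with the length of all exons. With 3 detected genes on each side, these medians per kb of coding length were the values of Robo1 and Slit2. The contrast therefore does not describe Robo2, which held most of the Robo reads. Robo2 and Slit2 were nearly level, with a difference of -0.064 ± 0.027 that turned to 0.46 with the length of all exons.

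The netrins had a higher median than their receptors, though Ntn5 and the receptor Unc5c overlapped between libraries. Ntn1, the founding secreted netrin, had 82.6, 83.9, 67.8 and 73.3 CPM in replicates 1 to 4, so replicates 1 and 2 were both higher. Ntn4, a netrin of basement membranes, had 26.4, 24.7, 15.3 and 18.6 CPM, with the same arrangement. Ntn5 was at 7.17 ± 0.214 CPM per kb. Ntn1 exceeded Ntn4 by 1.89 ± 0.23 (log2) in 4 of 4 libraries, or by 1.07 with the length of all exons.

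Of the netrin receptors, Unc5c, which mediates repulsion, was highest at 7.27 ± 0.942 CPM per kb. Unc5b, also used by endothelium, was at 3.65 ± 0.107 CPM per kb. Unc5a was at 1.52 ± 0.0521 CPM per kb. Dcc, the receptor for attraction to netrin, had 2.87, 2.66, 3.45 and 3.46 CPM in replicates 1 to 4. Unc5b exceeded Dcc by 1.77 ± 0.094 (log2) in 4 of 4 libraries. Unc5b lay 0.89 ± 0.13 below Unc5c, but 0.45 above it with the length of all exons. The median of the 5 netrin receptors lay below that of the 3 netrins by 2.56 ± 0.39 in 4 of 4 libraries, between 2.07 and 3.03 in single libraries. Those medians were the values of Unc5a, measured on 52 reads, and of Ntn4, or Ntn5 in replicate 3. The contrast therefore does not describe Ntn1 or Unc5c.

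The ephrins spread widely per kb: 4 of the 8 lay above every Eph receptor, and the other 4 lay below the highest of them, Ephb6. Efnb1, a transmembrane ephrin encoded on the X chromosome, had 52.5, 39.9, 41.4 and 49.0 CPM in replicates 1 to 4, or 44.1 ± 0.662 CPM per kb. Efnb2, the ephrin that marks arterial endothelium, had 30.1, 28.1, 32.6 and 34.1 CPM, or 31.0 ± 2.97 CPM per kb. Efna1, anchored to the membrane by a lipid, had 16.1, 17.8, 23.8 and 16.2 CPM, or 30.04 ± 3.51 CPM per kb, with replicate 3 above the rest. Efnb3 was at 5.73 ± 1.76 CPM per kb. Among the other ephrin-A genes, Efna5 was at 18.2 ± 2.29 CPM per kb, and Efna2, Efna3 and Efna4 had 18, 11 and 12 reads over all libraries.

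Within the ephrins, Efnb2 minus Efnb1 was -0.50 ± 0.15 (log2) and Efna5 minus Efna1 was -0.72 ± 0.058, both negative in 4 of 4 libraries. With the length of all exons they were -1.44 and -1.57. Efna5 minus Efna1 ran between -1.09 and -0.27 in single libraries, a spread that its SD of pair means understates. The ephrin-B median exceeded the ephrin-A median by 2.08 ± 0.022, while single libraries ran between 1.81 and 2.35, so the SD of the pair means understates the spread between libraries. The size of that difference rested on which low ephrin-A genes counted as detected. It was 0.99 without replicate 2, 0.72 without replicate 3 and 0.83 without replicate 4, against 1.94 without replicate 1. It was 3.37 with no minimum, 0.67 with a minimum of 10 CPM and 1.21 with the length of all exons, and positive in each case.

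The Eph receptors were low, and 13 of 14 were detected. Epha4, which binds both classes of ephrin, led the EphA group. It had 12.3, 18.2, 22.2 and 18.1 CPM in replicates 1 to 4, or 5.99 ± 1.17 CPM per kb, with replicate 1 below the others. Epha6 was at 5.83 ± 1.13 and Epha5 at 5.31 ± 0.0427 CPM per kb. Epha4 minus Epha5 was 0.13 ± 0.28 (log2), within the spread between pairs and positive in 3 of 4 libraries. With the length of all exons it was 0.84. Epha1, a receptor of epithelia, was listed at 0 in all 4 libraries.

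Ephb6, a receptor without kinase activity, was the highest Eph receptor per kb, with 34.1, 27.3, 32.2 and 27.7 CPM in replicates 1 to 4, or 9.97 ± 0.182 CPM per kb. Ephb3 stood at 7.53 ± 1.09 and Ephb4, the partner of Efnb2 in veins, at 7.33 ± 0.455 CPM per kb. Ephb2 exceeded Ephb1 by 1.12 ± 0.022, between 0.77 and 1.43 in single libraries, and by 0.30 with the length of all exons. The EphB median lay 0.99 ± 0.029 above the EphA median, between 0.82 and 1.21 in single libraries. The Eph median lay below the ephrin median by 1.90 ± 0.11 in 4 of 4 libraries. Eph receptors minus ephrins ran between -2.19 and -1.47 in single libraries, and between -2.25 and -2.08 with each replicate left out. The main value lies outside the latter range. Its size rested in part on whether Efna4 (12 reads) and Efna2 (18 reads), both near the minimum of 1 CPM, counted as detected. The difference between the Eph and ephrin medians shrank to 1.19 with no minimum and to 1.14 with the length of all exons. It turned to a positive 0.0845 with no division by length, since Eph receptors are the longer genes.

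Because Eph receptors and plexins share conserved domains, the 4 longest coding stretches common to several members are shown for what a footprint could and could not tell apart, each on its coding strand.
Ephb1 and Ephb3: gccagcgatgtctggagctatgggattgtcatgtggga
Epha7 and Ephb1: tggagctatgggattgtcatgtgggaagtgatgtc
Epha10 and Epha4: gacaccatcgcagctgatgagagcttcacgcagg
Plxna1 and Plxna4: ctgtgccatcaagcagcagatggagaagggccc
The stretch of Ephb1 and Ephb3 is 38 bases long, and those of the other pairs are 35, 34 and 33. They are the exceptions: 19 of the 2925 windows of 28 bases in Ephb1 (0.650%) and 15 of 5652 in Plxna4 (0.265%) occur in another annotated transcript. Of the genes named above for their level, Plxnc1 shared 1.92% of its windows, 90 of them with Gm48718, and Epha6 shared 1.87%. Epha1, listed at 0, shared 3.41% of its windows, all 99 with 2010010A06Rik.

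With all families pooled, the median of the receptors lay below that of the ligands, though not every receptor family was low. The median of the 32 detected receptors was 6.74 CPM per kb, against 18.3 CPM per kb over the 33 detected ligands. The difference between the medians was -1.39 ± 0.090 on the log2(CPM per kb + 0.5) scale, negative in 4 of 4 libraries and between -1.51 and -1.14. It was -0.96 with the length of all exons and -0.85 with no division by length. Of the receptors, 13 were Eph receptors, with a median of 4.40 CPM per kb. The median of the plexins was 16.3 CPM per kb and that of the neuropilins 61.4 CPM per kb. For each of these 9 contrasts between families, the two-sided exact sign-flip permutation test over the 2 pair means gave p = 0.5, the smallest that 2 samples allow, and an adjusted p of 0.5. Of the 17 contrasts between genes, 16 also gave p = 0.5 in the exact test and an adjusted p of 0.531. The exception was Epha4 minus Epha5 with an exact p of 1. These tests could not pass any usual threshold, and the sizes above are descriptions with their spread.

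**Figure D2:**
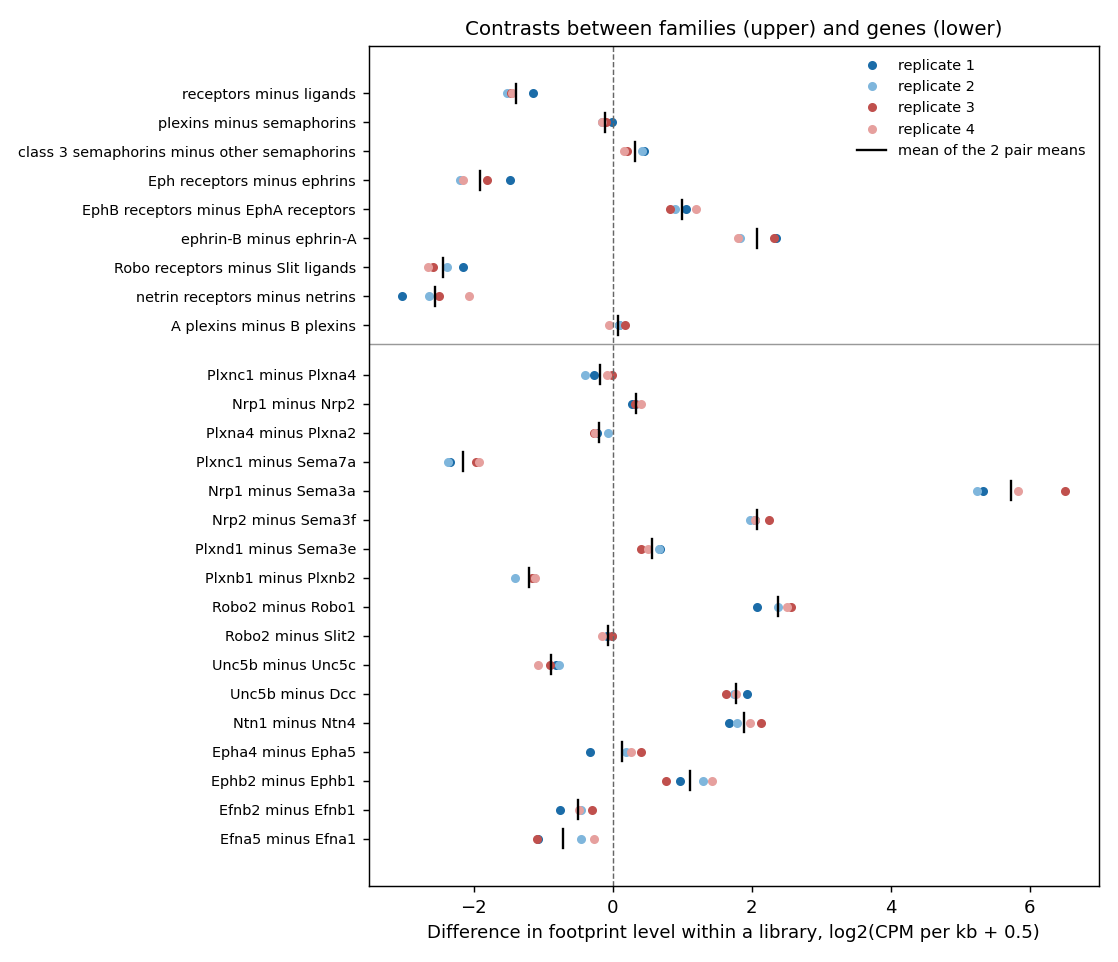
Difference in footprint level within each library, as log2(CPM per kb + 0.5), for 9 contrasts between families in the upper block and 17 between genes in the lower. Points are libraries, short vertical lines are the mean of the 2 pair means, and the dashed line marks no difference. Receptors lie left of the line against ligands in 4 of 4 libraries, and Nrp1 minus Sema3a lies farthest to the right, at 5.72.

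Whether a gene's reads varied between libraries by more than counting error was tested for every gene with at least 20 reads and whole reads in all libraries, by a chi-square test with Benjamini-Hochberg adjustment over all 13669 genes tested. Of the members, 63 entered the test, and the 8 others had fewer than 20 reads. At an adjusted p under 0.05, 9 of the 63 (14.3%) were called, beside 7.16% of all genes tested. All 9 were lower in replicates 1 and 2 than in replicates 3 and 4, a direction in which 3.99% of all genes tested were called, against 3.18% in the other direction. The members are better covered than most genes, which makes a call easier: with at least 100 reads, 10 of 53 members were called (18.9%), beside 10.4% of genes. Within replicates 1 and 2 alone, and within 3 and 4 alone, both chosen after seeing the data, the same chi-square test called 0 members and 0 genes. At an unadjusted p under 0.05 there were 3 of 58 and 3 of 59 members, beside 660 and 659 genes, or 5.45% and 5.44% of those tested.

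The called genes were 4 semaphorins, 3 plexins, a neuropilin and a Slit. Sema3b differed most, with a ratio of replicates 1 and 2 over 3 and 4 of 0.78 (chi-square 107, adjusted p = 7.28e-21), and Slit1 followed at 0.85 (adjusted p = 4.91e-11). Plxnc1 had the lowest ratio, 0.73, with an adjusted p of 3.32e-05 in the chi-square test. Plxna2 had a ratio of 0.82 (chi-square test, adjusted p = 0.00469) and Sema6d a ratio of 0.85 (adjusted p = 0.0047). The ratios of Nrp1, Sema5a, Plxnb3 and Sema6c were 0.84, 0.85, 0.79 and 0.76, with adjusted p between 0.00878 and 0.0177. Sema3b, Slit1 and Plxnc1 were called whichever replicate was left out. Without replicate 1 the count fell to 5, and Plxnb3, Sema5a, Sema6c and Sema6d were no longer called. Nrp1 was not called by the chi-square test without replicate 2 (adjusted p = 0.0992) or replicate 4 (0.0547), nor with totals that leave out mitochondrially encoded genes (0.0875). Sema5a was not called without replicate 3 or with those totals, and Plxna2 was not called without replicate 2 (0.263). Plxnb3 was also not called without replicate 3, nor Sema6c without replicate 4.

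**Figure D3:**
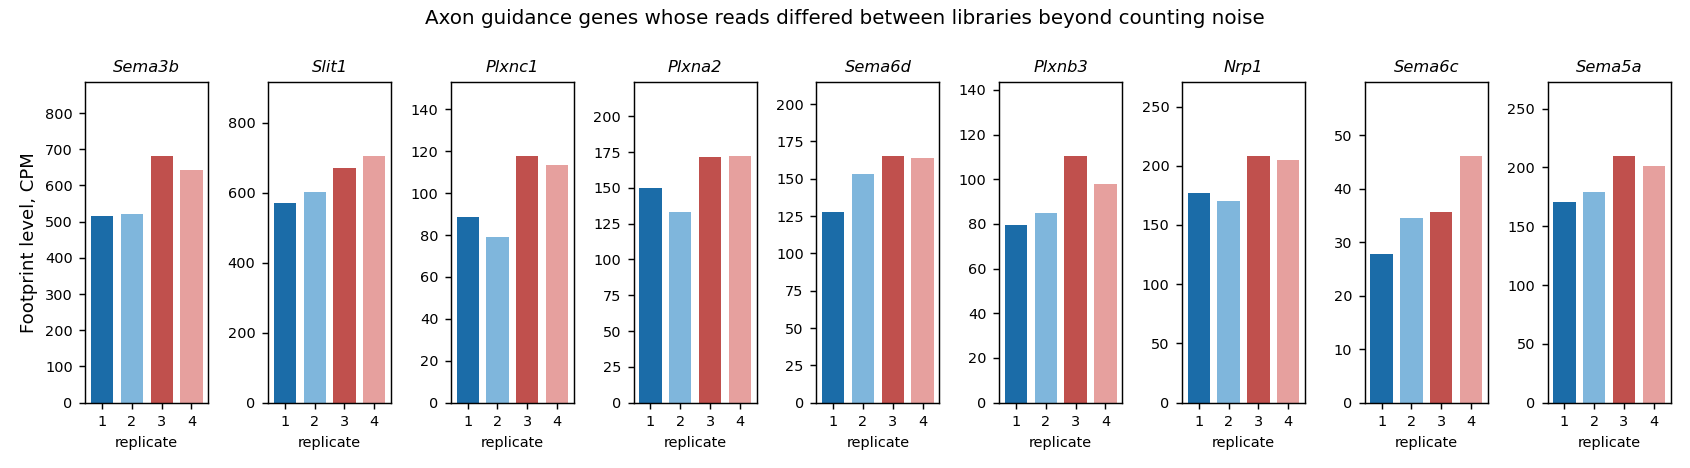
CPM of the 9 genes called in the chi-square test over libraries, 1 panel per gene with its own axis from 0 and 1 bar per library. In each panel the bars of replicates 1 and 2, in blue, are lower than those of replicates 3 and 4, in red.

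Most detected members, with the called genes included, leaned the same way. Of the 66 detected members, 53 had a lower mean in replicates 1 and 2, and the median ratio over members was 0.88, beside 1.003 over all detected genes. In 31 of the 66 (47.0%) both of replicates 1 and 2 lay below both of 3 and 4, beside 24.6% of all 15279 detected genes. The reverse arrangement was seen in 6 of 66 (9.09%), beside 23.4% of detected genes. Ntn1, at a ratio of 1.18, and Ntn4, at 1.5, were higher in replicates 1 and 2, though neither was called over the 4 libraries (adjusted p = 0.374 and 0.11 in the chi-square test). With each pair added together Ntn4 was called, while the other members called there were lower in replicates 1 and 2. Plxna4 had a ratio of 0.89 and was not called by the chi-square test (adjusted p = 0.447), and Sema7a had a ratio of 0.97 (adjusted p = 0.683).

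Other values moved with the same split of libraries. The summed Schwann cell markers had a ratio of 0.89, with 6 of 6 detected. Pmp22, which sets that sum, had a ratio of 0.81 and was not tested because its values were not whole reads in every library. The other 5 Schwann cell markers had ratios between 1.001 and 1.21, and the 1 of them called, Mbp, was higher in replicates 1 and 2. The skeletal muscle markers had a ratio of 1.63, with 6 of 6 detected and 6 of 6 called, all higher in replicates 1 and 2. The summed sensory neuron markers had a ratio of 0.998, with members called in both directions: of 11 tested, Nefh was higher in replicates 1 and 2 (1.15), and Scn10a (0.83) and Stmn2 (0.84) were lower. The fibroblast markers summed to a ratio of 0.91, with Col1a1 called lower (0.87) and Dcn called higher (1.03). Col1a2 (0.92) and Col3a1 (0.83), also lower, were not tested, for the same reason as Pmp22. Mural cell markers summed to 1.16, with Acta2 (1.27) and Myh11 (1.23) called. The satellite glia markers summed to 0.98, with Cadm1 (0.77) called, while Apoe (0.99) and Glul (1.20) were likewise not tested. Of the endothelial markers 0 of 6 were called, at a summed ratio of 0.98, and of the macrophage markers 0 of 5, at 1.07. At an unadjusted p under 0.05 in the chi-square test these were 0 endothelial markers and 1 macrophage marker. Mitochondrially encoded genes took 17.0% and 16.8% of reads in replicates 1 and 2, against 14.6% and 14.4% in replicates 3 and 4. The part of these in the members' differences was not tested, apart from the totals without mitochondrially encoded genes, under which 7 members were called. No label assigns the pairs to a batch, an animal or a day.

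**Figure D4:**
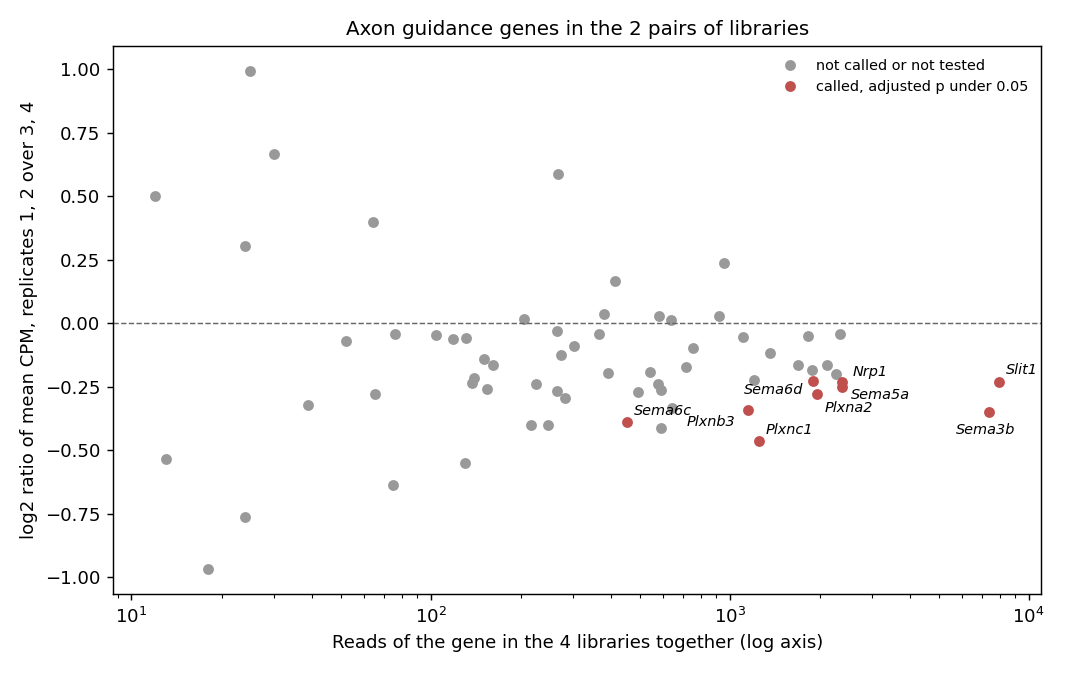
Ratio of the mean CPM of replicates 1 and 2 over that of 3 and 4 (log2) against the reads of each of the 66 detected genes, on a log axis. Red points with names are the 9 called genes, which all lie below 0. The widest ratios belong to genes with few reads.

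Other genes of the pathway, adhesion molecules and signalling proteins that act beside or below the receptors, were taken from a list of 67. Of these 66 were detected, and their median was 15.4 CPM per kb. The highest was Dpysl2, a mediator of semaphorin signalling to microtubules, at 482 ± 52.6 CPM per kb. The actin-severing protein Cfl1 was at 459 ± 41.0 and the adhesion molecule L1cam at 443 ± 24.02 CPM per kb. Rtn4, the source of the myelin inhibitor Nogo, was at 344 ± 47.5 CPM per kb. The GTPases Cdc42 and Rac1, switches of the actin skeleton, stood at 288 ± 10.5 and 279 ± 18.5 CPM per kb. Sequence shared with copies of these genes was not counted. The lowest detected were the netrin receptor Dscam at 1.004 ± 0.149 and the adaptor Nck2 at 1.49 ± 0.0462 CPM per kb.

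Of 64 pathway genes tested between libraries, 13 were called (20.3%), beside the 7.16% of all genes. All 13 were lower in replicates 1 and 2, a direction in which 3.99% of all genes tested were called. Coverage was not matched here, and with at least 100 reads the share of all genes called was 10.4%. Dpysl2 had 789, 738, 899 and 883 CPM in replicates 1 to 4, a ratio of 0.86 (adjusted p = 2.22e-11 in the chi-square test). Rtn4 had 1082, 1086, 1314 and 1322 CPM, a ratio of 0.82 (chi-square test, adjusted p = 1.36e-28). Cfl1 had a ratio of 0.88 (chi-square test, adjusted p = 0.0017). Cdc42 and Rac1, at ratios of 1.05 and 1.10, were not called by the chi-square test (adjusted p = 0.733 and 0.485), and L1cam was not tested because its values were not whole reads.

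The levels of neighbouring genes on a chromosome could lie far apart. Sema3b and Sema3f, 72271 bases apart on chromosome 9, differed by 21.1-fold per kb, with Sema3b higher. Efna1 and Efna3, 32757 bases apart on chromosome 3, differed by 25.6-fold, with Efna1 higher. Across the 65 detected coding members, level per kb and coding length had a Spearman rho of -0.050, and level per kb and GC content of the coding sequence one of -0.18. The members of a family share sequence and length, and all points share the same libraries, so these are descriptions.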

How the data were processed

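The deposited table gives 1 value per gene and library for 4 ribosome footprint libraries. Per the labels' protocols, spin columns were used to isolate RNA bound to ribosomes, which was depleted of rRNA and selected by size. The submitters' processing notes name TopHat2 2.1.1, Cufflinks 2.2.1, Bowtie2 2.2.9 and FastQC 0.11.5, with GRCm38. The annotation, counting rule, handling of multiple matches and strand are, in the sources used here, not given. The deposited columns are named for TPM, but the authors' deposited values are CPM: each column sums to 1000000, and between 96.5% and 97.0% of values above 0 were whole multiples of 1 step per library (tolerance 0.02 steps), whatever the gene length. Reads were recovered from that step. All values of the members were whole reads. 

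GENCODE M21 holds 48052 of the table's gene IDs and lacks 379. Coding length is that of the longest coding sequence. Reads in untranslated regions were not separated. Medians over detected members were compared within libraries, and windows of 28 bases, the shortest footprint selected, were matched to all annotated transcripts. The members, lists, contrasts and tests were chosen with earlier results of these data known. Genes named are the 3 highest of each family, those of the contrasts, Plxnc1, Plxna4 and Nrp1, the 5 with the largest chi-square, those at 0, and the 6 highest and 2 lowest of the pathway list. Sema6b, Unc5a, Efnb3, Efna3, Efna4, Robo3, Epha8, the cell type markers, the remaining called genes, the genes of the shared stretches and the chromosome neighbours were named after their values were seen. Alternatives changed the pseudocount (0.1 or 1), the minimum mean (none, 0.1 or 10), the length, median to mean, the totals and the minimum reads, and left out each replicate. The chi-square script was tested on simulated data. It recovered 39 of 100 genes changed 1.5-fold and 69 of 100 changed 2-fold, and called 4 of 13469 unchanged genes in each case. A gene that was not called may therefore still differ between libraries. Tools were scipy 1.17.1, pandas 2.3.3, numpy 2.4.6, matplotlib 3.10.9 and Python 3.11.15. One Schwann cell marker of the planned list is not reported here. Floors cover counting error only.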

Additional observations from a re-analysis of the deposited data

Results flagged for a closer look

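In each of the 66 detected genes, the highest or lowest of the 4 libraries was compared with the rest, as its gap to the nearest other library over the whole range, against Dixon's 95% critical value for 4 samples. Robo1 exceeded it with 0.920, from replicate 1 at 38.4 CPM above 31.5, 31.4 and 30.9 CPM in replicates 2 to 4. Plxnd1 exceeded it with 0.914, from replicate 4 at 155 CPM above 144, 144 and 143 CPM in replicates 1 to 3. For 4 independent values, chance passes this limit in about 1 in 20 genes. These libraries fell into pairs, so that share need not hold here. Neither gene varied between libraries beyond counting error (chi-square test, adjusted p = 0.624 for Robo1 and 0.789 for Plxnd1).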

How the results depend on the processing

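No paired analysis was possible because the series has 1 group, so replicate numbers pair nothing. Directions turned in 9 cases. With the length of all exons, plexins minus semaphorins was 0.55, class 3 minus other semaphorins -0.11, A plexins minus B plexins -0.43, Plxnc1 minus Plxna4 0.29, Plxna4 minus Plxna2 0.0726, Robo2 minus Slit2 0.46 and Unc5b minus Unc5c 0.45. With no division by length, plexins minus semaphorins was 1.06 and Eph receptors minus ephrins 0.0845. The setting with no division by length also changed the pseudocount to 1 CPM. Among the other settings run, including each replicate left out, no contrast changed sign; since p could not go below 0.5, this says nothing about the calls. The chi-square test called between 5 and 7 members with each replicate left out (4.75% to 6.58% of all genes tested), with fewer samples, and 0 within replicates 1 and 2 alone and 0 within 3 and 4 alone (3 members in each at an unadjusted p under 0.05). It called 13 with each pair added together (10.2% of genes), 10 with at least 100 reads (10.4%) and 7 without mitochondrially encoded genes (6.99%). The 13 include Ntn4, which was higher in replicates 1 and 2. Detected members numbered 51 at a minimum of 10 CPM, 68 at 0.1 CPM and 61 when at least 1 CPM was required in every library. Depth limits the lowest genes, such as Efna2, Efna3, Efna4, Sema3a, Robo3, Epha8 and Epha10, with 5 to 25 reads each.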
